A study of Homo sapiens with 14 samples.

Results

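The 10 keratin genes described here were followed through the RNA-seq tables of the 2 prostate cancer cell lines, chosen by symbol: KRT8, KRT18, KRT7 and KRT19 of simple epithelium, KRT5, KRT15, KRT17, KRT6A and KRT4 of basal and stratified epithelium, and KRT80, which was kept apart. They are 10 of the 55 keratin genes listed in each table, which hold 24199 features for DU145 and 44591 genes for LNCaP. DU145, an androgen-insensitive line, was analysed as 3 libraries of wild-type cells with a control hairpin (shCON) and 3 of cells with PAX6 knockdown (shPAX6). Both DU145 arms were made with lentiviral hairpins and puromycin selection, and the labels do not say which hairpin each shPAX6 library carried. LNCaP, an androgen-responsive line, gave 1 wild-type control library and 1 library of enzalutamide-resistant cells (LNCaP-ENZ), treated with the antiandrogen enzalutamide at 20 µM and, per the series text, for 30 days. The comparisons ask how loss of the transcription factor PAX6, and long exposure to enzalutamide, went with keratin expression in cells studied for neuroendocrine traits. No label says that libraries of a group came from separate cultures, so p-values measure the spread between these libraries.

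Keratins form the intermediate filaments of epithelial cells. Each filament pairs a type II keratin with a type I keratin, so that KRT8 is the usual partner of KRT18 and KRT5 of KRT14 or KRT15. Prostate luminal cells are known for KRT8 and KRT18, prostate basal cells for KRT5, KRT14 and KRT15 together with the transcription factor TP63, and KRT19 and KRT7 are found in ductal and intermediate cells. KRT4 belongs to the suprabasal layer of mucosal stratified epithelium, and KRT6A and KRT17 are known for activated or wounded epithelium. The type II genes lie in one cluster on chromosome 12 and the type I genes in another on chromosome 17, with KRT18 as the type I gene beside KRT8 on chromosome 12.

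The promoters of KRT4, the member that rose in the DU145 test, and of KRT5, the defining basal keratin, which was listed at 0 in every DU145 library, are shown from RefSeq. Each runs from 250 bases before to 50 bases after the annotated start of the gene on the minus strand of GRCh38.p14, at chr12:52814067-52814366 for KRT4 and chr12:52520345-52520644 for KRT5. Capitals mark the letters TATAA, searched on both strands.
KRT4: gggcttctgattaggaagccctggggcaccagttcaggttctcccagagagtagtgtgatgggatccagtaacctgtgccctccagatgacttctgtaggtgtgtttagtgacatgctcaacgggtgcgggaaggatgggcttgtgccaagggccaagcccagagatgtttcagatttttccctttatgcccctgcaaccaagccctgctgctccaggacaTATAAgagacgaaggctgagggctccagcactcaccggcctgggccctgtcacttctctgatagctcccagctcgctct
KRT5: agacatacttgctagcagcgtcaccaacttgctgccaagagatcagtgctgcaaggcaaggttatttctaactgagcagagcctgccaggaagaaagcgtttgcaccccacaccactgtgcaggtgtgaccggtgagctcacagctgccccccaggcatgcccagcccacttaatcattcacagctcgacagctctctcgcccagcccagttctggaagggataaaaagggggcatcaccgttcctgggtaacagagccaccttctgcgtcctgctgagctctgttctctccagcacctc
The KRT4 window held 1 TATAA, whose first base lies 29 bases before the start, and the KRT5 window held 0. Only these exact letters were searched, so the 0 does not show that KRT5 lacks a related element with other letters. TATAA was found in 20.4% of the 35116 promoters of this length in the table. GGGCGG, present in 45% of promoters, and TGANTCA, present in 7.71%, were in neither window, while CANNTG, present in 68.7%, occurred once in KRT4 and at 2 places in KRT5. Of the 10 members, 3 had an entry in the table, the other being KRT8.

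PAX6, the targeted gene, stood at 0.839, 1.23 and 1.57 FPKM with the control hairpin and at 0.0153, 0.274 and 0.0778 FPKM with the PAX6 hairpin. FPKM, the unit taken for the DU145 values, counts fragments relative to transcript length and library size. All 3 shPAX6 libraries were below all 3 shCON libraries, with a log2 fold change of -2.69 (SE 0.49) and an adjusted p of 0.054 by limma. The LNCaP libraries held 20468001 and 17945722 counts in all. The summed FPKM of the DU145 libraries ran from 448901 to 570790, and their depth is unknown. Among the DU145 libraries, shPAX6 1 and shPAX6 2 departed in opposite directions with transcript length: across genes, the deviation from the mean had a rank correlation with length of -0.544 in shPAX6 1 and 0.555 in shPAX6 2, against -0.198 to 0.236 in the other 4.

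In DU145 cells the 4 simple-epithelial keratins made up nearly all of the keratin signal. Their share of the summed FPKM of the 10 members was 97.7%, 97.9% and 97.7% in the shCON libraries and 98.6%, 96% and 97.3% in the shPAX6 libraries. KRT7, a type II keratin, and KRT8, its relative in the same cluster, headed the order in shCON cells with overlapping values, and KRT18, KRT19 and KRT80 followed without overlap between neighbours. KRT17 and KRT15 overlapped far lower, KRT4 came below them, and KRT5 and KRT6A were listed at 0 in all 6 libraries. In shPAX6 cells KRT7 stood above KRT8 without overlap, and the neighbours KRT8, KRT18 and KRT19 overlapped in turn. KRT80 followed, and KRT4 was now above KRT17 and KRT15, again without overlap.

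**Figure D1:**
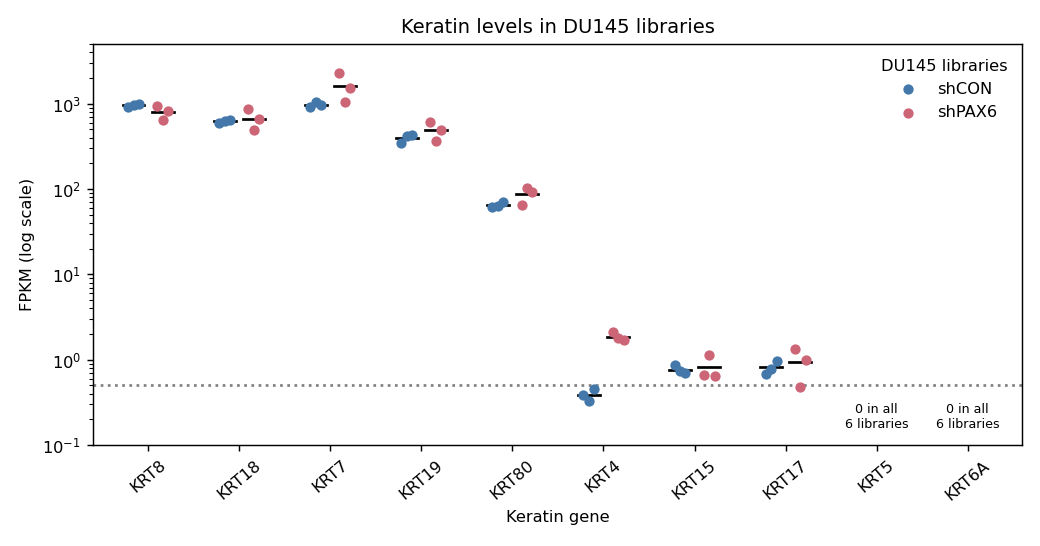
FPKM of the 10 keratins on a log axis in the 6 DU145 libraries, with 1 point per library, black bars at the mean of each group and a dotted line at 0.5 FPKM, the mean needed for testing. KRT8, KRT18, KRT7 and KRT19 lie above 300 FPKM in every library, and KRT4 and KRT7 are the members whose groups do not overlap.

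KRT4, the mucosal type II keratin, was higher in the shPAX6 cells. Its level was 0.382, 0.332 and 0.459 FPKM in shCON 1 to 3, against 2.09, 1.78 and 1.7 FPKM in shPAX6 1 to 3, or 0.391 ± 0.0639 against 1.86 ± 0.209 FPKM (SD, n = 3), a 4.75-fold difference. The groups did not overlap, and each shPAX6 library was above every shCON library. On the scale of log2(FPKM + 0.1), which understates changes of low genes, the difference was 2.00 (SE 0.25, 95% interval 1.41 to 2.58), with an adjusted p of 0.022 by limma over 13574 features. KRT4 passed the filter of a mean of 0.5 FPKM only through the shPAX6 libraries, since its shCON mean lay below it. The exact permutation test over the 6 libraries gave a two-sided p of 0.1 for KRT4, the smallest that 3 against 3 allows. Leaving out shCON 1, 2 or 3 or shPAX6 3 raised the adjusted p to 0.15, 0.18, 0.18 and 0.14, with fold changes of 1.99, 1.91, 2.10 and 2.06 on the log2 scale.

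KRT4 was the only one of the 8 members tested to pass, against 1.20% of all features tested, or 163 features. Of these 163, 24 were higher and 139 lower in the shPAX6 cells. The split was 74 higher and 162 lower among the 236 features called with quantile normalization, 28 and 72 among the 100 called with median centring, and 100 and 122 among the 222 called with the GC correction. KRT4 took 19.7%, 17.8% and 21.6% of the summed FPKM of the 5 basal and stratified keratins in shCON and 51.2%, 52.5% and 51% in shPAX6. That sum itself stayed low, between 1.86 and 2.13 FPKM in shCON and between 3.33 and 4.09 FPKM in shPAX6. KRT4 is part of the sum, to which KRT5 and KRT6A add nothing. The share and the sum are therefore not results separate from the level of KRT4. The keratin genes that lie beside KRT4 on chromosome 12 were at or near 0. KRT3 averaged 0.123 FPKM in shCON and 0.172 FPKM in shPAX6, KRT78 reached at most 0.0529 FPKM, and KRT76 and KRT79 were listed at 0 in all 6 libraries.

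Of the simple-epithelial keratins, KRT7 was the 1 whose groups did not overlap, and it did not pass the adjusted threshold. KRT7 stood at 913, 1036 and 952 FPKM in shCON 1 to 3 and at 2263, 1057 and 1519 FPKM in shPAX6 1 to 3, or 967 ± 63 against 1613 ± 609 FPKM (SD, n = 3). The lowest shPAX6 value, 1057 FPKM, lay just above the highest shCON value, 1036 FPKM. The log2 fold change of KRT7 was 0.67 (SE 0.27, 95% interval 0.03 to 1.31) with an adjusted p of 0.25 by limma, and the exact permutation p was 0.1. Without shPAX6 2 it was 0.94 with an adjusted p of 0.033 by limma, so that KRT7 then passed, and without shPAX6 1 it was 0.39 with an adjusted p of 0.20. In the fit without shPAX6 2, 903 of the 13574 features tested passed, against 163 with all 6 libraries. Non-overlapping groups were seen for 2 of the 8 members tested, KRT4 and KRT7, and for 26.7% of all features tested.

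KRT8, the luminal type II keratin, stood at 918, 977 and 993 FPKM in shCON and at 947, 635 and 823 FPKM in shPAX6. The groups overlapped, the log2 fold change was -0.28 (SE 0.18, 95% interval -0.71 to 0.15), and the adjusted p was 0.47 by limma. Without shPAX6 1 the change of KRT8 was -0.41, and without shPAX6 2 it was -0.12. KRT18, its type I partner, stood at 589, 627 and 643 FPKM in shCON and at 861, 492 and 653 FPKM in shPAX6. Here too the groups overlapped, shPAX6 1 being the highest of the 6 libraries and shPAX6 2 the lowest. The log2 fold change of KRT18 was 0.07 (SE 0.21, 95% interval -0.43 to 0.57) with an adjusted p of 0.90 by limma. The signs of both depended on the scaling, since a correction for GC content gave 0.0038 for KRT8 and quantile normalization gave -0.21 for KRT18, and KRT18 was at -0.13 without shPAX6 1. Across all features tested the median log2 fold change was -0.12, against 0.06 after median centring.

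KRT19, a type I keratin of ductal epithelium that lacks the usual tail domain, stood at 346, 420 and 428 FPKM in shCON and at 609, 370 and 497 FPKM in shPAX6. The groups overlapped, and the log2 fold change was 0.28 (SE 0.21, 95% interval -0.20 to 0.77) with an adjusted p of 0.53 by limma. The change of KRT19 was 0.12 without shPAX6 1, 0.47 without shPAX6 2 and 0.64 with the GC correction, and it passed in none of these. KRT80, a type II keratin expressed in many epithelia and known to be near cell junctions, stood at 62.1, 62.9 and 69.6 FPKM in shCON and at 64.4, 104 and 93.3 FPKM in shPAX6. For KRT80 the lowest shPAX6 library fell within the shCON range, and the log2 fold change was 0.40 (SE 0.19, 95% interval -0.05 to 0.85) with an adjusted p of 0.32 by limma. The change of KRT80 was 0.61 without shPAX6 1, with an adjusted p of 0.025 by limma, and 0.26 without shPAX6 2, with an adjusted p of 0.33. In the fit without shPAX6 1, 920 of the 13574 features tested passed, against 163 with all 6 libraries. With the GC correction the change of KRT80 was 0.70, with an adjusted p of 0.12.

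Within a library, the simple keratins did not keep the same proportions in the 2 groups. The ratio of KRT7 to KRT8 in FPKM was 0.995, 1.06 and 0.958 in the shCON libraries and 2.39, 1.66 and 1.84 in the shPAX6 libraries. The ratio of KRT8 to KRT18 was 1.56, 1.56 and 1.55 in shCON and 1.1, 1.29 and 1.26 in shPAX6. In neither ratio did the groups overlap: KRT7 was above KRT8 in all shPAX6 libraries and about level with it in shCON, and KRT8 exceeded KRT18 by less in shPAX6. KRT7 to KRT18 went from 1.56 ± 0.0854 to 2.37 ± 0.243, KRT19 to KRT18 from 0.64 ± 0.0471 to 0.74 ± 0.0289 and KRT7 to KRT19 from 2.44 ± 0.211 to 3.21 ± 0.45 (SD, n = 3), with no overlap in any. The summed type II keratins KRT7 and KRT8 against the summed type I keratins KRT18 and KRT19 gave 1.96, 1.92 and 1.82 in shCON and 2.18, 1.96 and 2.04 in shPAX6, which overlapped. These ratios were chosen after the levels were seen and carry no test. A ratio shows that 2 genes differed unequally, not which of them changed. The ratios are built from the same few genes, so they are not separate results. How often the ratios of other gene pairs do not overlap was not computed. For single features tested that share was 26.7%. KRT7 and KRT19 have the higher GC content, at 62% and 61.8% of transcript bases, against 56.2% for KRT8 and 55.7% for KRT18, and the fold changes of all genes had a rank correlation of -0.363 with GC content across genes. With the correction for GC content the log2 fold changes were 1.03 for KRT7, 0.0038 for KRT8, 0.35 for KRT18 and 0.64 for KRT19. Without it they were 0.67, -0.28, 0.07 and 0.28. The ratios themselves were not recomputed with this correction, so the part of GC content in them was not tested. Transcript length also differs, at 1625 bases for KRT7, 1390 for KRT19, 2088 for KRT18 and 2862 for KRT8. The libraries shPAX6 1 and shPAX6 2 departed in opposite directions with length. No correction for length was made, so its part in these ratios was not tested.

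**Figure D2:**
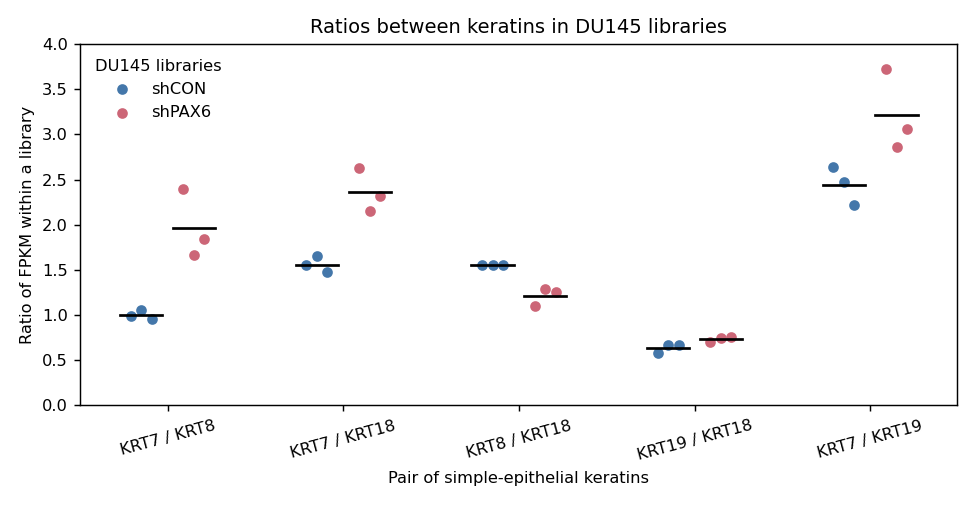
Ratios of FPKM between pairs of simple-epithelial keratins within each of the 6 DU145 libraries, with 1 point per library and black bars at the group means. KRT7 to KRT8 lies near 1 in all shCON libraries and between 1.66 and 2.39 in the shPAX6 libraries.

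The other basal and stratified members were low in DU145. KRT15, a type I keratin of basal cells, stood at 0.868, 0.745 and 0.692 FPKM in shCON and at 0.663, 1.13 and 0.643 FPKM in shPAX6. KRT17 stood at 0.689, 0.788 and 0.977 FPKM in shCON and at 1.33, 0.485 and 0.987 FPKM in shPAX6. In both genes the shPAX6 libraries spread around the shCON range, with log2 fold changes of 0.03 (95% interval -0.66 to 0.73) for KRT15 and 0.09 (95% interval -0.79 to 0.97) for KRT17, and adjusted p of 0.97 and 0.93 by limma. The sign of each turned when single libraries were left out. TP63, the defining transcription factor of basal cells, was also listed at 0 in all 6 libraries, as KRT5 and KRT6A were.

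In LNCaP cells the keratin signal was carried by KRT18 and KRT8, and none of the members above the floor of 3 counts differed by as much as 2-fold between the libraries. With 1 library per arm no test of the treatment was possible, and the intervals cover counting error only. KRT18 had 2806 counts in the control and 2454 in LNCaP-ENZ, or 137 and 137 CPM (counts scaled to library size), a log2 ratio of -0.0036 (95% exact interval -0.08 to 0.08). KRT8 had 490 and 405 counts, or 23.9 and 22.6 CPM, a log2 ratio of -0.08 (-0.28 to 0.11). The intervals of both included 0. With TMM factors the ratios were 0.14 for KRT18 and 0.06 for KRT8, so that neither direction was kept, and the median log2 ratio of the 14767 expressed genes was -0.15.

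KRT7 had 40 and 36 counts in the control and LNCaP-ENZ libraries (log2 ratio 0.04, interval -0.65 to 0.72), and KRT80 had 48 and 40 (-0.07, interval -0.72 to 0.56). KRT19 had 16 and 22 counts, with a log2 ratio of 0.59 and an interval from -0.35 to 1.68. These intervals are wide, and a difference of the size seen for KRT7 in DU145 lies within that of KRT7. KRT5, KRT6A, KRT15 and KRT17 had 0 counts in both libraries, and KRT4 had 0 and 1, under the floor of 3 counts, which amounts to 0.147 CPM in the control and 0.167 CPM in LNCaP-ENZ. Thus 5 of the 10 members lay above the floor and 0 of them were past 2-fold, against 22.5% of the 21870 genes above the floor.

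KRT18 outweighed KRT8 in LNCaP, while KRT8 outweighed KRT18 in DU145. Per transcript length, in TPM (a length-normalized share of all transcripts), KRT18 stood at 93.2 in the control and 87.6 in LNCaP-ENZ, and KRT8 at 11.0 and 9.80, a ratio of 8.45 and 8.94. KRT8 and KRT18 together made up 97.8% and 97.4% of the TPM of the members. In DU145 the ratio of KRT18 to KRT8 was below 1 in every library. The tables were made and normalized separately, so this is a description of each table. One transcript, RN7SK, took 38.8% and 38.5% of the TPM of the LNCaP libraries, so the keratins share what is left of that scale.

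Ranked among the 18702 protein-coding symbols that both tables list, KRT8, KRT18, KRT7 and KRT19 lay at or above percentile 99.1 in every DU145 library. In LNCaP KRT18 lay at percentiles 97.4 and 97.3 and KRT8 at 75.8 and 76.4, whereas KRT7 lay at 43.7 and 46.5 and KRT19 at 38 and 43.5. KRT80 lay at 93 to 96.4 in DU145 and at 38.8 and 40.6 in LNCaP. KRT4 lay at 35.5 to 36.6 in shCON and at 46.4 to 53.2 in shPAX6. KRT7, KRT19 and KRT80 were, of the members with counts in both lines, those whose ranks differed most.

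**Figure D3:**
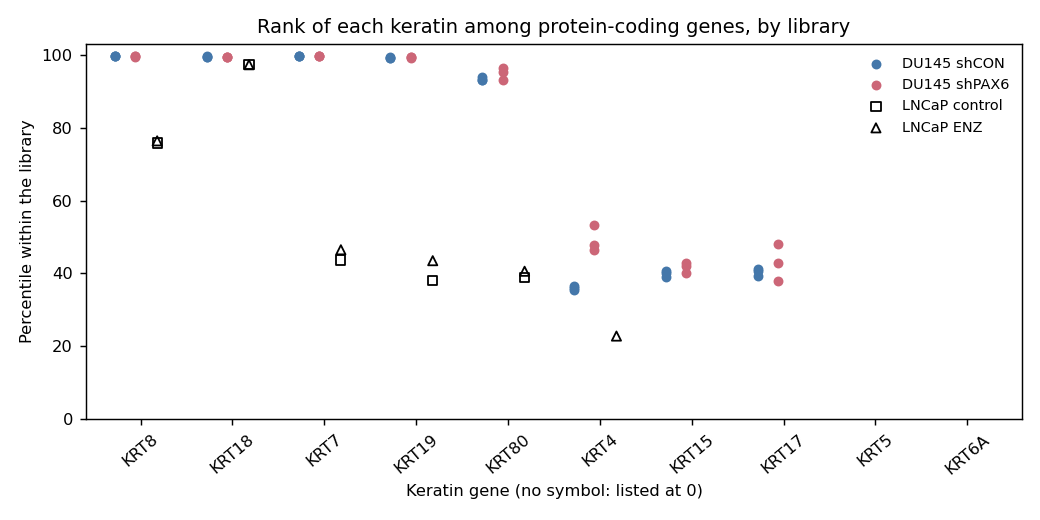
Percentile of each keratin among 18702 protein-coding symbols within each library, for the 6 DU145 libraries (filled) and the LNCaP control and LNCaP-ENZ libraries (open). Genes without a symbol were listed at 0, and KRT7, KRT19 and KRT80 lie above 90 in DU145 and below 50 in LNCaP.

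**Figure D4:**
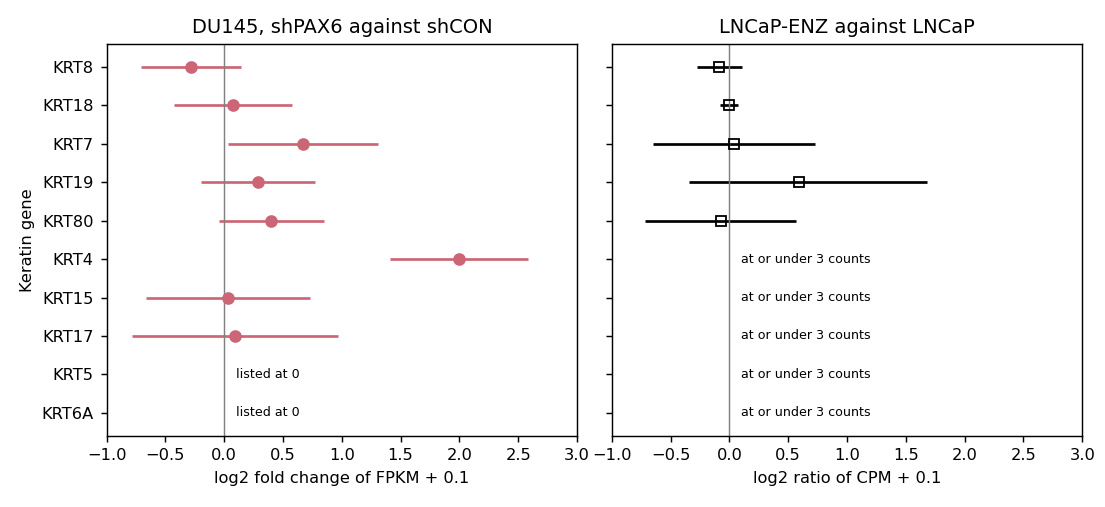
Differences of the members on a log2 scale, on the left shPAX6 minus shCON in DU145 with 95% intervals from limma, and on the right LNCaP-ENZ over control with 95% exact counting intervals. In DU145 the interval of KRT4 runs from 1.41 to 2.58, and in LNCaP every interval includes 0.

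Reads of keratin genes can be shared with copies and neighbours. The table of LNCaP lists 43 KRT8 pseudogenes, of which 13 had counts that summed to 199 and 173, or 40.6% and 42.7% of the KRT8 counts. KRT8P46 had 75 and 79 counts, KRT8P12 had 44 and 24, and KRT8P3 had 40 and 47. The 62 KRT18 pseudogenes summed to 72 and 72 counts, or 2.57% and 2.93% of those of KRT18, with KRT18P34, KRT18P5 and KRT18P7 the most counted. KRT8 and KRT18 overlap by 996 bases on opposite strands, and it is not stated whether counting used strand. Of the windows of 100 bases along its longest transcript, KRT18 shared 12.2% with another searched keratin gene or pseudogene, all with KRT8. KRT8 shared 3.8%, KRT7 8.32%, all with its antisense gene KRT7-AS, and KRT6A 18.2%, mostly with KRT6C. KRT4, KRT15, KRT19 and KRT80 shared 0. The levels of KRT8 and KRT18 are uncertain for this reason, and how many of their reads were placed elsewhere was not tested.

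On GRCh37, the build used for the LNCaP table, KRT80 lies at chr12:52562780-52585784 (minus strand), KRT7 at chr12:52626954-52642709 (plus), KRT6A at chr12:52880958-52887181 (minus) and KRT5 at chr12:52908359-52914243 (minus). KRT4 lies at chr12:53200327-53207900 (minus), KRT8 at chr12:53290971-53343650 (minus) and KRT18 at chr12:53342655-53346685 (plus). On chromosome 17, KRT15 lies at chr17:39669997-39675270, KRT19 at chr17:39679869-39684641 and KRT17 at chr17:39775692-39780882, all on the minus strand. KRT15 and KRT19 are thus neighbours, yet KRT19 was abundant and KRT15 near 0.8 FPKM in DU145. Of the 55 keratins, 33 were listed at 0 in all DU145 libraries and 11 averaged 0.5 FPKM or more, while in LNCaP 35 had 0 counts in both libraries and 10 lay above the floor.

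Outside the 10 members, 3 of the 45 other keratins were tested in DU145 and 0 passed by limma, with 1 at an unadjusted p under 0.05. KRT10, of the differentiating epidermis, averaged 5.72 ± 1.11 and 7.05 ± 4.46 FPKM, and KRT86, a hair keratin, 0.714 ± 0.0932 and 0.881 ± 0.226 FPKM (SD, n = 3). KRT81, another hair keratin, averaged 2.29 ± 0.355 FPKM in shCON and 1.24 ± 0.357 FPKM in shPAX6, a log2 fold change of -0.86 (SE 0.28, adjusted p 0.18 by limma). KRT81 lies within the span of KRT86 on the opposite strand, so reads of these 2 genes may not be told apart. In LNCaP 5 of the 45 lay above the floor. Over all genes above the floor 22.5% were past 2-fold, with 3624 lower and 1306 higher in LNCaP-ENZ. Of the 5, 2 were at least 2-fold lower in LNCaP-ENZ and 0 higher. They were KRT75 with 11 and 3 counts (log2 ratio -1.25, interval -4.17 to 0.24) and KRT86 with 4 and 0 counts (upper bound of the interval 0.79), both chosen after their values were seen, and both intervals include 0. KRT10 had 266 counts in the control and 280 in LNCaP-ENZ, a log2 ratio of 0.26 with an interval from 0.02 to 0.51.

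Among 28 partners of keratin filaments, 26 were tested in DU145, of which 3 were lower in shPAX6, 0 were higher and 23 did not pass, against 1.20% of all features. Of the 163 features called over all, 139 were lower in shPAX6 and 24 higher. The 3 partners called act at different points. FAM83H, which organises keratin filaments, averaged 37.5 ± 5.6 FPKM in shCON and 16.4 ± 2.94 FPKM in shPAX6 (log2 fold change -1.19, SE 0.18, adjusted p 0.035 by limma). JUP, the desmosomal plakoglobin, averaged 25.4 ± 3.16 and 13.4 ± 0.532 FPKM (-0.91, SE 0.14, adjusted p 0.037), and ITGB4, the integrin of hemidesmosomes, 9.1 ± 1.29 and 3.56 ± 0.848 FPKM (-1.35, SE 0.23, adjusted p 0.043). Of the partners tested by limma, 0 passed without shCON 1, shCON 2, shCON 3 or shPAX6 3, 4 without shPAX6 1 and 6 without shPAX6 2. Over all features tested, 920 passed without shPAX6 1 and 903 without shPAX6 2. With the GC correction 0 partners passed, the changes being -0.77 for FAM83H, -0.56 for JUP and -0.97 for ITGB4, with adjusted p of 0.17, 0.061 and 0.11 by limma. The median log2 fold change of the partners was -0.17, against -0.12 over all features tested. VIM, the mesenchymal filament vimentin, singled out after its values were seen, averaged 1021 ± 71.3 and 1516 ± 193 FPKM with an adjusted p of 0.14, a level of the same order as KRT7 and KRT8.

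In LNCaP 23 partners lay above the floor, of which 6 were at least 2-fold lower in LNCaP-ENZ and 0 higher. That is near the share over all genes above the floor, 22.5% past 2-fold in either direction. Of all genes past 2-fold, 3624 were lower in LNCaP-ENZ and 1306 higher. The desmosomal cadherins DSC2 and DSG2 had 489 and 167 counts and 3164 and 1114 counts, log2 ratios of -1.35 (interval -1.62 to -1.10) and -1.32 (-1.42 to -1.22). PPL, periplakin, had 192 and 67 counts (-1.31, interval -1.75 to -0.92). The partners with the largest positive ratios were ITGB4, with 95 and 158 counts (0.91), LMNB2, a nuclear lamin, with 2220 and 2888 (0.57), and NES, the filament nestin, with 2691 and 3491 (0.56). ITGB4 was thus lower in shPAX6 in DU145 and had a ratio above 0 in LNCaP-ENZ.

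Of 26 lineage genes, 14 were tested in DU145, of which 2 were lower in shPAX6, 0 were higher and 12 did not pass, against 1.20% of all features. Among all 163 features called, 139 were lower in shPAX6 and 24 higher. CDH1, the epithelial E-cadherin, averaged 6.14 ± 0.844 FPKM in shCON and 1.26 ± 0.526 FPKM in shPAX6 (log2 fold change -2.28, SE 0.34, adjusted p 0.033 by limma). CDH3, the P-cadherin of basal cells, averaged 24.5 ± 4.97 and 10.6 ± 2.06 FPKM (-1.20, SE 0.21, adjusted p 0.048), and EPCAM, an epithelial adhesion molecule, 11.6 ± 0.129 and 6.84 ± 0.204 FPKM (-0.75, SE 0.14, adjusted p 0.054). The median log2 fold change of the 14 was 0.08, and by limma 0 of them passed without shCON 1, shCON 2, shCON 3 or shPAX6 3, 4 without shPAX6 1 and 3 without shPAX6 2. Over all features tested, 920 passed without shPAX6 1 and 903 without shPAX6 2. By class, 5 of the 8 basal genes tested lay above 0 and 3 below, with a median of 0.16, and 3 of the 6 luminal genes lay above 0 and 3 below, with a median of -0.19.

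In LNCaP 22 lineage genes lay above the floor, of which 5 were at least 2-fold lower and 1 higher in LNCaP-ENZ. This is near the 22.5% of all genes past 2-fold in either direction, of which 3624 were lower and 1306 higher. TMPRSS2, a serine protease of luminal cells, had 5394 and 1471 counts, a log2 ratio of -1.68, and LAMB3, a laminin chain of basement membranes, had 202 and 71 (-1.30). ACPP, prostatic acid phosphatase, had 85 and 210 counts (1.47, interval 1.12 to 1.88). The luminal keratins KRT8 and KRT18 kept log2 ratios close to 0 in the same libraries, between -0.17 and 0.15 over all alternatives. They were not alone in staying within 2-fold. Of the 13 luminal lineage genes above the floor, 4 were at least 2-fold lower and 1 higher. EPCAM and CDH1 were among the rest, with log2 ratios of -0.27 and -0.35. Of markers of other cell types, the 4 endothelial markers summed to 348 and 46 counts in LNCaP control and LNCaP-ENZ, nearly all from VWF with 345 and 27, while PECAM1 had 3 and 3, CDH5 had 0 and 0 and KDR had 0 and 16. The 5 fibroblast markers summed to 456 and 231 counts, all from COL1A1, with COL1A2, COL3A1, DCN and LUM at 0 in both libraries. The 5 leukocyte markers summed to 56 and 70 counts. In DU145 the same lists summed to at most 0.127, 0.773 and 0.922 FPKM in any library, with 0, 2 and 3 of their genes listed at 0 throughout. The 5 neuroendocrine markers summed to 21.8 to 24.7 FPKM in shCON and 24.4 to 32.9 FPKM in shPAX6, and to 189 and 145 counts in LNCaP. Their part in the results was not tested.

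**Figure D5:**
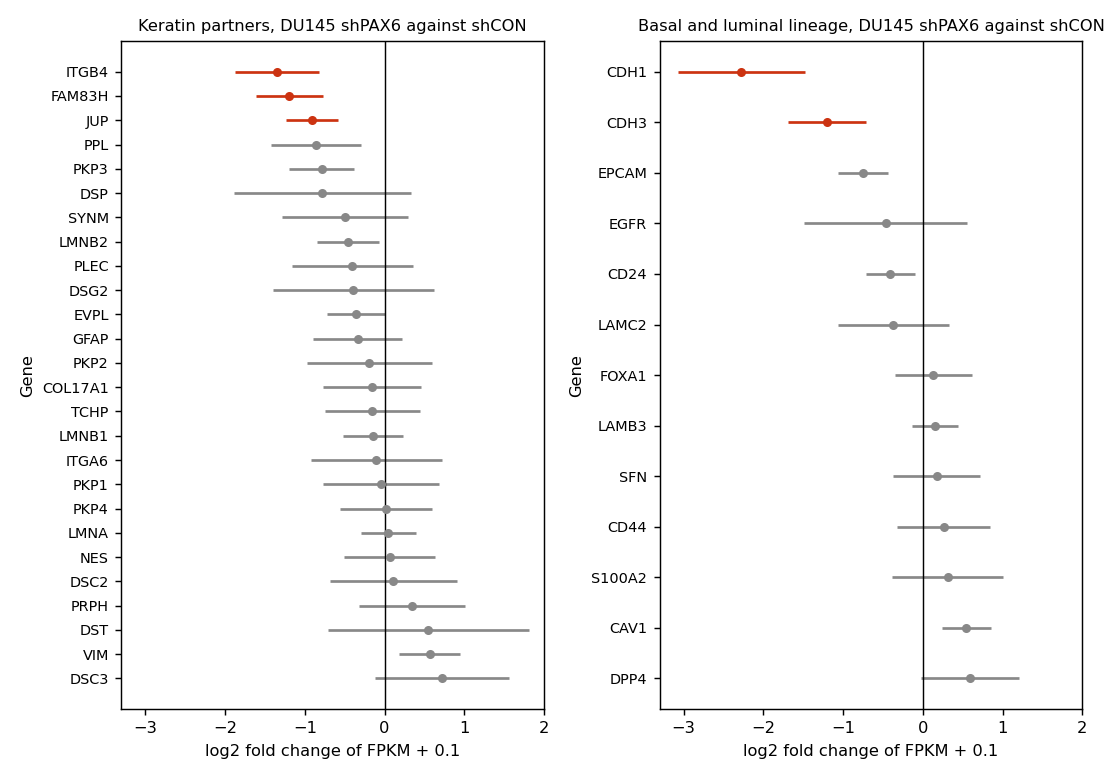
Log2 fold changes, shPAX6 minus shCON in DU145, with 95% intervals from limma, for the 26 keratin partners (left) and 13 of the 14 lineage genes (right) that were tested, red where the adjusted p was under 0.05. ITGB4, FAM83H and JUP, and CDH1 and CDH3, are the genes in red, all below 0.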

How the data were processed

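RNA-seq was available for 6 DU145 and 2 LNCaP libraries, grouped by the labels; 6 ATAC-seq samples were not used here. The DU145 table was deposited by the authors with a value per gene and library, taken as FPKM (HISAT2 and StringTie, GRCh37, per the methods), although the table names no unit. The LNCaP table was deposited by the authors with raw counts and TPM. The methods state 3 replicates per line, the labels 1 LNCaP library per arm. The members and lists were chosen with earlier results of these data known.

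Log2(FPKM + 0.1) was tested with limma 3.58.1 in R 4.3.3 (empirical Bayes with an intensity trend, two-sided) on the 13574 features averaging 0.5 FPKM or more over the 6 libraries, at a Benjamini-Hochberg adjusted p of 0.05. The script was checked on simulated data. LNCaP was described by the log2 ratio of CPM + 0.1, computed from the counts, with 95% Clopper-Pearson intervals of the split of counts, and 2-fold was read where a library exceeded 3 counts. Intervals and floors cover counting error only. Named genes were all members, list genes with an adjusted p under 0.05 in DU145 (or the 3 lowest p), the 3 largest LNCaP ratios in each direction at a mean CPM of at least 5, and other keratins above 0.5 FPKM or 1 CPM. Alternatives were other pseudocounts, filters, scalings, array weights, a GC correction, a replicate block, a stricter threshold and each library left out. Some lineage genes are not reported here. GC content was matched for 88.5% of tested features.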

Additional observations from a re-analysis of the deposited data

How the results depend on the processing

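The replicate numbers of DU145 did not pair the libraries (correlations of same-numbered deviations -0.166, -0.366 and 0.0519), so the replicate block is given as an alternative. KRT4, KRT7, KRT19 and KRT80 stayed above 0 in every alternative. Of the alternative fits other than leave-one-out, KRT4 had an adjusted p under 0.05 by limma in all but those with the replicate block. With that block the adjusted p of KRT4 was 0.17, and 0.063 with the GC correction as well. It was under 0.05 in 2 of the 6 leave-one-out fits. The log2 fold change of KRT4 was 1.04 with a pseudocount of 1. The threshold of 0.01 was applied to the main fit, where the adjusted p of KRT4, 0.022, did not pass it. The number of members called, 1, became 4 with array weights (KRT4, KRT7, KRT19 and KRT80), 0 with the replicate block alone or with the GC correction and 0 at a threshold of 0.01, with 2 without shPAX6 1 or shPAX6 2 and 0 without any of the other libraries. For the partners, 3 calls became 11 with array weights, 1 with no filter, 0 with the block, the GC correction, both or the stricter threshold, and 0 to 6 over leave-one-out fits. For the lineage genes, 2 became 8 with array weights, 1 with a pseudocount of 0.01, median centring or no trend, 0 with no filter, the block (alone or with GC) or the stricter threshold, and 0 to 4 over leave-one-out fits. For the other keratins, 0 became 1 with array weights. In LNCaP, the partners past 2-fold went from 6 to 3 with a pseudocount of 1, and the other keratins from 2 to 0 with a pseudocount of 1 or a mean CPM of 1, and to 1 on TPM. Over all features, the 163 calls became 4569 with array weights, 222 with the GC correction, 7 with GC and block, 100 with median centring, 108 with no filter and 0 with the block (1568 at an unadjusted p under 0.05 by limma), and 0 without shCON 1 or shCON 3 (1617 and 1258 at an unadjusted p under 0.05), 5 without shCON 2, 10 without shPAX6 3, 920 without shPAX6 1 and 903 without shPAX6 2. Signs turned for KRT8 (0.0038 with the GC correction, with or without the block), KRT18 (-0.21 with quantile normalization, -0.13 without shPAX6 1), KRT15 (-0.19 with array weights, -0.03 without shCON 3, -0.20 without shPAX6 2), KRT17 (-0.01 without shCON 1, -0.19 without shPAX6 1) and KRT10 (-0.03 with array weights, -0.03 without shCON 1, -0.34 without shPAX6 1). Over all leave-one-out fits KRT8 ran from -0.41 to -0.12, KRT18 from -0.13 to 0.28, KRT15 from -0.20 to 0.16, KRT17 from -0.19 to 0.46 and KRT10 from -0.34 to 0.53. None of these passed the threshold in any fit, and the cause was not tested. The depth of the DU145 libraries is unknown, and LNCaP, with 1 library per arm, gives no spread between libraries.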
